A study of Mus musculus with 4 samples.

Results

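The Ly6 gene cluster of mouse chromosome 15 was examined in embryonic stem (ES) cells of 2 inbred strains, through the genes Ly6e, Ly6a, Ly6c1, Ly6c2, Ly6g, Ly6i, Ly6k and Ly6d. Regions were taken from 4 strain-enriched lists when their midpoint lay in a window of 0.7 Mb (mm10) that runs from before Adgrb1 to past Ly6g, or when an H3K27ac row named one of these genes. This gave 12 of 31315 regions, 6 of H3K4me3 and 6 of H3K27ac, and the 3 H3K27ac rows that named a member (Ly6e, Ly6a and Ly6c2, 1 each, all in the NOD list) were among the 12. Regions were thus chosen by their presence in a list, which rests on the tags or scores of 1 strain against the other, so these values are given as a description. The window holds 38 RefSeq genes, 25 of them protein-coding.

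The cells were ES cells of C57BL/6 (B6) mice and of non-obese diabetic (NOD) mice, a strain prone to autoimmune diabetes. Both were derived from blastocysts and grown in 2i medium, which contains inhibitors of MEK and GSK3, and the labels give no other treatment. ChIP-Seq was carried out with antibodies against H3K4me3 (trimethylation of lysine 4 of histone H3, typical of active promoters) and H3K27ac (acetylation of lysine 27 of histone H3, typical of active enhancers and promoters), with 1 library for each strain and mark. The labels do not name the cell line behind each library. With no replicate, no test between strains was possible, and intervals given below cover counting error in 2 libraries only.

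LY6 proteins are small cell-surface or secreted proteins built on a compact fold held by disulfide bonds, and many are attached to the membrane by a glycosylphosphatidylinositol anchor. The mouse cluster arose by repeated gene duplication, and several of its genes are the basis of antigens used to sort blood cells. Ly6a encodes Sca-1, a marker of haematopoietic stem cells and of interferon-exposed lymphocytes. Ly6c1 and Ly6c2 encode the Ly-6C antigens of monocytes and other leukocytes, and Ly6g encodes a marker of neutrophils. Ly6d is expressed in lymphoid progenitors and keratinocytes, and Ly6k in male germ cells. Ly6e is expressed more widely, is induced by interferon, and is known for its effects on the entry of viruses into cells.

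Most NOD-enriched regions lay from the flank of Ly6e onward, and the B6-enriched regions lay before it. All 4 NOD H3K4me3 regions and 3 of the 4 NOD H3K27ac regions lay between the upstream flank of Ly6e and the stretch between Ly6c1 and Ly6c2. The 2 B6 H3K4me3 regions and the 2 B6 H3K27ac regions all lay before Ly6e, between Adgrb1 and Ly6k, as did the remaining NOD H3K27ac region at Jrk. In the map of the cluster, the stretch from Ly6e to Ly6g carried no B6-enriched region of either mark. That stretch is about 204 kb long, while the autosomes held 3.05 B6 H3K4me3 and 2.20 B6 H3K27ac regions per Mb. A stretch of this length can thus easily hold none, and the placement of the regions was not tested.

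**Figure D1:**
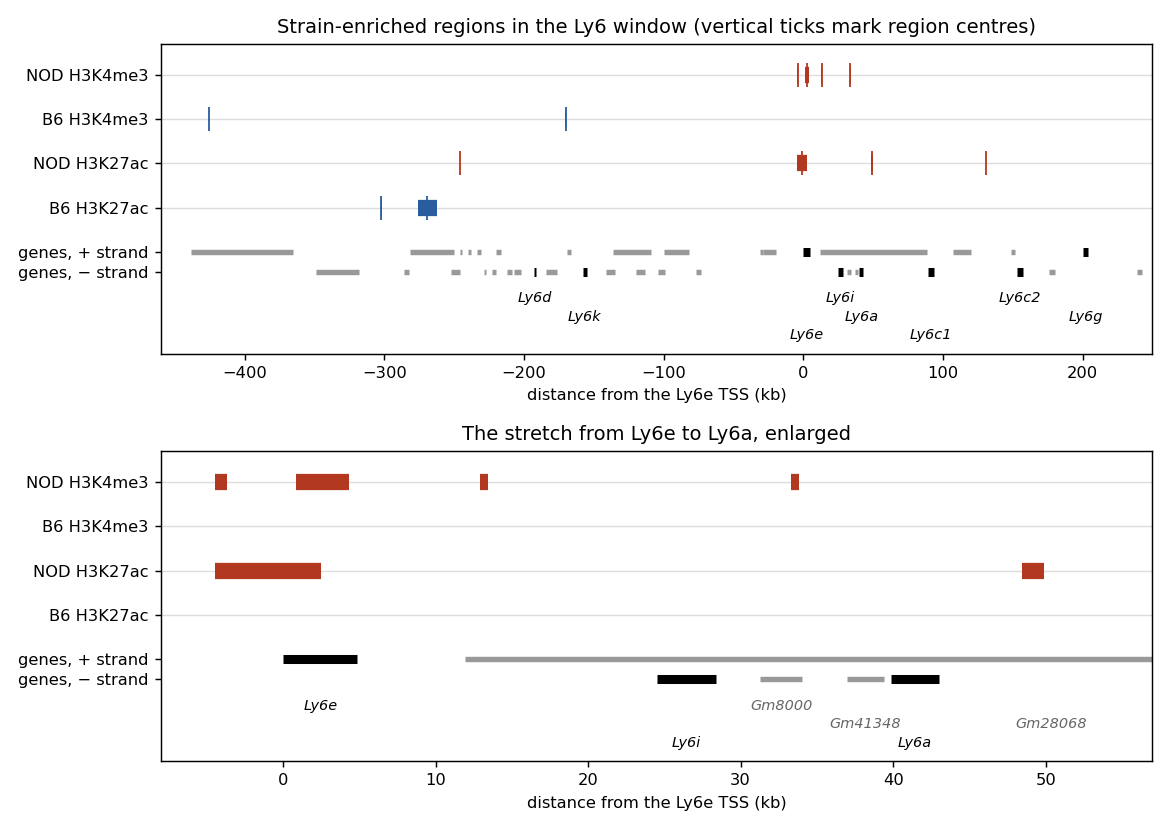
Positions of the 12 strain-enriched regions (red NOD, blue B6) and of the annotated genes (black for the 8 Ly6 members, grey for others), with distance from the Ly6e transcription start site in kb on the horizontal axis and 1 track for each list. The upper panel spans the window and the lower panel enlarges the stretch from Ly6e to Ly6a, where all 4 NOD H3K4me3 regions lie and where the H3K27ac domain of Ly6e covers its start site.

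At the level of genes, 2 of the 8 members (Ly6e and Ly6i) had a NOD-enriched H3K4me3 region that touched the gene body or lay no more than 5 kb from a transcription start site (TSS), beside 24.4% of 21787 protein-coding genes. None of the 8 had a B6-enriched H3K4me3 region, beside 16.5% of all genes. For H3K27ac, 1 member (Ly6e) had a NOD-enriched region, beside 16.5%, and 0 had a B6-enriched region, beside 14.5%. The other 6 members, Ly6a, Ly6c1, Ly6c2, Ly6d, Ly6g and Ly6k, had no region of either mark under this rule. With 8 genes, these counts are too small to set the members apart from genes in general. Ly6e was the 1 member with both marks, and the share of all genes with both was not computed.

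Regions per megabase gave a similar picture for H3K4me3. The window held 5.71 NOD H3K4me3 regions per Mb, beside 4.34 over the rest of chromosome 15 and 4.8 over the autosomes. For B6 H3K4me3 these values were 2.86, 2.56 and 3.05. The density of NOD H3K27ac regions in the window was 5.71 per Mb, beside 2.09 and 2.40, whereas that of B6 H3K27ac was 2.86, beside 2.17 and 2.20. Each window value rests on 2 or 4 regions, and no test was made.

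The regions nearest to the edges of the window show what lay just inside and outside it. The last B6 H3K4me3 region outside lay 8.32 kb before the window (6 NOD and 18 B6 tags), and the first inside lay 29.5 kb past that edge (3 NOD and 11 B6 tags). On the other side, the last region inside was the NOD H3K27ac region between Ly6c1 and Ly6c2 (score 392.4), 114 kb before the edge, and the first outside was a NOD H3K27ac region annotated to Ly6f (score 24.2), 82.1 kb past it. The nearest NOD H3K4me3 regions outside were 614 kb before the window (29 NOD and 2 B6 tags) and 254 kb after it (18 NOD and 0 B6 tags).

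Ly6e (chr15:74955025-74959904, plus strand) carried the H3K4me3 region with the most tags among the 6 listed ones, and regions alike in both strains are not in the lists. The region at chr15:74955887-74959318 held 1351 tags in the NOD library and 68 in the B6 library, or 594 and 46.0 tags per 10000000. NOD was the high library, as the 4-fold limit of its list required. The ratio of NOD to B6 was 12.9, with a 95% Clopper-Pearson interval of 10.1 to 16.7 that covers counting error in these 2 libraries. Among the 12077 regions of the NOD H3K4me3 list it stood at rank 8 by tags and rank 25 by width, and 18 regions of that list held at least 1000 NOD tags. Over that list the median width was 500 bp, and the medians of NOD and B6 tags were 30 and 2.

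The B6 library was not empty at Ly6e. Per kb of this 3431 bp region it held 19.8 tags, which was 2.68 times the average of that library over the genome size given in the file headers. The NOD library held 394 tags per kb, or 34.6 times its own genome average. Both strains were thus above their genome average at Ly6e, by unequal amounts, and the difference is one of degree in these 2 libraries. Every 50-base window of the region occurred once in the reference genome, so no read of that length has a second exact match there in the reference.

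The second H3K4me3 region of Ly6e lay upstream, at chr15:74950581-74951338, 4.07 kb before the TSS at its centre and outside any annotated gene. It held 79 NOD tags and 0 B6 tags, or 34.7 and 0 tags per 10000000. With the floor of 3 tags put in place of 0 B6 tags, the ratio of NOD to B6 was 17.1. The lower end of the 95% Clopper-Pearson interval was 13.6-fold. The upstream region stood at rank 1367 of 12077 by tags, far below the gene-body region. Of its 50-base windows, 97.5% occurred once in the genome.

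Farther along, the long non-coding RNA Gm28068 runs on the plus strand past Ly6i and Ly6a and carried 2 NOD H3K4me3 regions. The first, chr15:74967967-74968467, lay over an exon of Gm28068, 1.29 kb downstream of a TSS of that gene, with 26 NOD tags and 0 B6 tags. With the floor of 3 tags in place of 0, its ratio of NOD to B6 was 5.63, and the lower 95% limit was 4.27-fold. The second, chr15:74988356-74988856, covered another TSS of Gm28068 and an exon of the pseudogene Gm8000, with 87 NOD tags and 12 B6 tags. Scaled to 10000000 tags these became 38.2 for NOD and 8.11 for B6, and NOD exceeded B6 4.71-fold (2.57 to 9.47). The second region is also the one counted for Ly6i, since its edge lies 4.93 kb from the Ly6i TSS, just inside the limit of 5 kb. By position it is closer to Gm28068, with 0.212 kb from its centre to that TSS. Ly6i is no longer counted within 1 kb of a TSS or by nearest TSS. Which gene the mark relates to was not tested.

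The 2 B6 H3K4me3 regions were small. One lay over an exon of Adgrb1, a gene for an adhesion G protein-coupled receptor, at chr15:74529214-74529714, with 11 B6 tags and 3 NOD tags, a ratio of B6 to NOD of 5.64 (1.49 to 31.5). The other lay between genes at chr15:74784450-74784950, 0.752 kb upstream of the non-coding gene Gm33174, with 21 B6 tags and 4 NOD tags, a ratio of 8.07 (2.72 to 32.4). Their wide intervals reflect these few tags, and by tags they stood at ranks 7349 and 3057 of 7587. The second was the B6 region nearest to a member, 15 kb from the TSS of Ly6k and 20.9 kb from that of Ly6d. Over the window, the NOD list summed to 1543 NOD tags, 87.6% of them in the gene-body region of Ly6e, and the B6 list to 32 B6 tags.

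**Figure D2:**
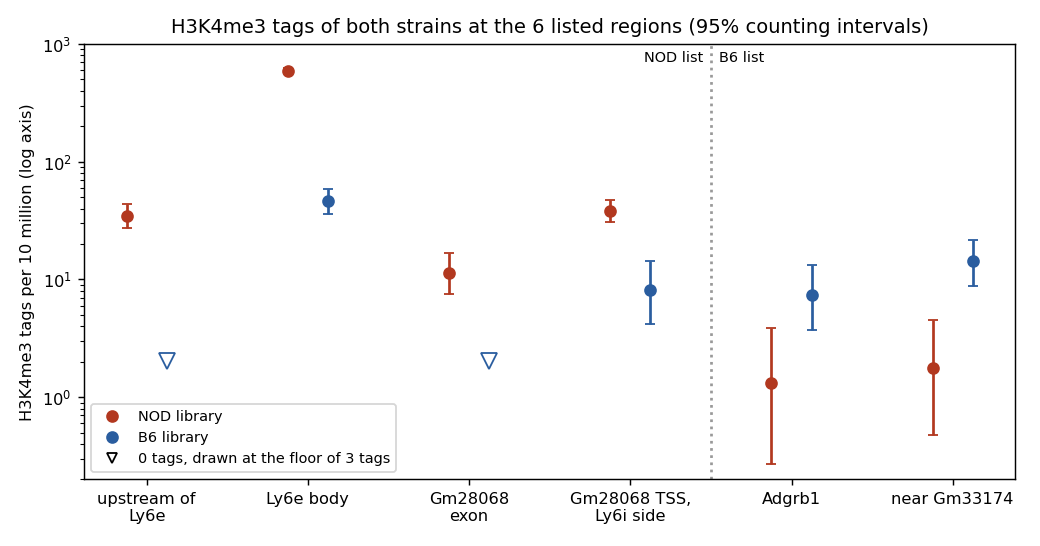
H3K4me3 tags per 10000000 tags of the library (vertical log axis) in the NOD (red) and B6 (blue) libraries at the 6 listed H3K4me3 regions of the window, with points for the libraries, bars for 95% Poisson intervals, and open triangles at the floor of 3 tags where a library had 0. The gene-body region of Ly6e, at 594 in NOD and 46.0 in B6, stands above the other 5 regions in both libraries. These tags are not divided by width, and this region is the widest of the 6. Per kb it stayed highest in NOD. In B6 it was then below the region at the Gm28068 TSS and both B6-enriched regions, and above those without B6 tags.

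For H3K27ac the files give no tags but a score per region, in which the other strain has been subtracted from the strain of the list, on a scale they do not state. Ly6e again carried a large NOD-enriched domain, at chr15:74950575-74957535. It was 6960 bp wide and reached from -4.45 kb to 2.51 kb relative to the Ly6e TSS. Its score was 336.4, rank 57 of 6126, where the median score of the list was 12.9. By score per kb the domain was less prominent, at 48.3 beside a list median of 37.1, and 7.36% of the list was wider. The paper reports a HOMER super enhancer analysis of H3K27ac. Whether wide regions of the list join separate peaks across gaps was not examined, so the width of the domain need not be unbroken signal.

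The H3K27ac domain and the H3K4me3 regions of Ly6e met only in part. The domain contained the whole 757 bp upstream H3K4me3 region and 1648 bp (48.0%) of the gene-body region. It covered the first exon of the Ly6e transcript NM_001164036.2 in full (693 bp) and none of its later exons. The gene-body H3K4me3 region started 0.862 kb past the TSS, after that first exon, and covered 101 bp and 120 bp of exons 2 and 3, the whole of both, and 826 bp of the 1412 bp last exon. The listed NOD H3K27ac domain thus spanned the start of Ly6e and its upstream flank, with H3K4me3 regions at the far upstream end and in the body. The domain has 1 score for its whole span, so where in it the H3K27ac signal lay is not shown. A predicted RefSeq transcript, XM_030248359.1, starts at 74955721, just before the H3K4me3 region. The stretch between both H3K4me3 regions was in no list, which does not show that it lacked the mark in either strain.

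Few regions of the NOD list met several H3K4me3 regions, but the median width of that list was 293 bp, beside 6960 bp for the Ly6e domain. Wider regions have more room for such overlaps, and the share among regions of like width was not computed. Of 6126 NOD H3K27ac regions, 65 (1.06%) overlapped 2 or more NOD H3K4me3 regions, 538 overlapped 1, and 5523 overlapped none. Within the window the Ly6e domain was the single H3K27ac region that overlapped any H3K4me3 region. The other NOD H3K27ac regions lay 14.6, 96.8 and 241 kb from the nearest H3K4me3 region of the same strain, and the B6 ones 92.1 and 123 kb.

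The highest H3K27ac score of the cluster was not at Ly6e but in a region of 291 bp between Ly6c1 and Ly6c2, at chr15:75085633-75085924. Its score was 392.4, rank 45 of 6126, and its score per kb of 1348 was rank 2. The file annotated it to a B1_Mus1 SINE repeat and to Ly6c2, whose TSS lay 26.0 kb away, while the nearest TSS of any annotated gene was that of Gm52219, 17.7 kb away. No H3K4me3 region of either list overlapped it. Among NOD H3K27ac regions with a score of at least 300, it was 1 of 3 under 500 bp out of 82, whose median width was 12018 bp. The others were a region of 291 bp annotated to P4ha2, 39.7 kb from its TSS (score 580.9), and one of 440 bp in an intron annotated to Ccl28 (score 430.5), both named after their values were seen.

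This narrow region holds repeated sequence. Of its 50-base windows, 81.5% occurred once in the reference genome, and the most repeated window occurred 90122 times. With windows of 36 bases the unique share was 68.1%. The part of repeats in this score was not tested.

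A further NOD H3K27ac region lay in an intron of Gm28068 at chr15:75003456-75004913, 5.42 kb from the TSS of Ly6a, to which the file annotated it. Its 1457 bp had a score of 22.6 (rank 1940), or 15.5 per kb, below the list median of 37.1. The file placed it in an RLTR13B1 element, a long terminal repeat of the ERVK class, and 70.1% of its 50-base windows were unique, the lowest share of the 12 regions. The NOD region before Ly6e, 233 bp at the promoter of the non-coding gene 4933427E11Rik inside an intron of Jrk, had a score of 5.97, rank 5831.

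Both B6 H3K27ac regions lay farther from the Ly6 genes. One of 659 bp at chr15:74652323-74652982, between Mroh4 and Arc, was annotated to an RLTR16B_MM element of the ERVK class and had a score of 57.9, rank 514 of 5525. The other spanned 13136 bp of Gm32994 at chr15:74679254-74692390 and had a score of 57.2, rank 523. They were nearly equal in score and far apart in density, at 87.9 and 4.35 per kb. The nearest member was Ly6d, whose TSS lay 71.2 kb from the wide region.

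**Figure D3:**
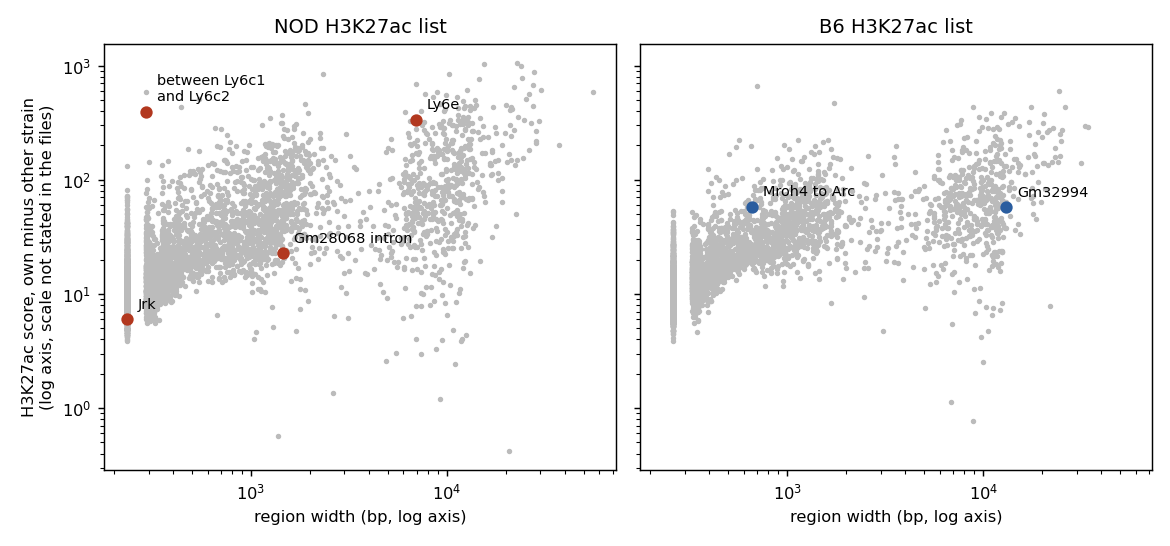
H3K27ac score (own minus other strain, log axis) against region width in bp (log axis) for the NOD list (left) and the B6 list (right), with all regions in grey and those of the Ly6 window coloured and named. On this axis 18 NOD and 8 B6 regions with a score of 0 or below cannot be drawn. The region between Ly6c1 and Ly6c2 (392.4 at 291 bp) sits above nearly all regions of its width, while the Ly6e domain (336.4 at 6960 bp) sits among other wide regions.

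The remaining members were ordered by the distance of their TSS to the nearest NOD H3K4me3 region. After Ly6e (0.862 kb) and Ly6i (4.93 kb) came Ly6a at 9.18 kb, Ly6c1 at 60.0 kb, Ly6c2 at 123 kb, Ly6k at 151 kb, Ly6g at 166 kb and Ly6d at 187 kb. For NOD H3K27ac the order was Ly6e, whose TSS was covered, then Ly6a (5.42 kb), Ly6i (20 kb), Ly6c2 (26.0 kb), Ly6c1 (36.8 kb), Ly6d (54.5 kb), Ly6g (69.3 kb) and Ly6k (90.9 kb). For Ly6d, Ly6g and Ly6k the nearest NOD-enriched region of either mark was thus an H3K27ac region, 54.5, 69.3 and 90.9 kb away. Such distances were not computed for genes in general, so whether these are long was not tested. Distances to the nearest B6 H3K4me3 region ran from 15 kb at Ly6k to 370 kb at Ly6g, and those to B6 H3K27ac from 71.2 kb at Ly6d to 460 kb at Ly6g.

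For 3 members the reference sequence itself limits what single-end 50 bp reads can show. Within 1 kb of the TSS, 55.0% of 50-base windows occurred once in the genome at Ly6a, 51.9% at Ly6c1 and 58.0% at Ly6c2. At Ly6d, Ly6k and Ly6e the share was 100%, and at Ly6i and Ly6g it was 91.6% and 94.5%. Under the 5 kb rule, these 3 members had no region, and neither had Ly6g, Ly6d and Ly6k, whose start sites were nearly all unique. Genes without a region were therefore found at both ends of this scale, and the part of read placement was not tested. Over the whole 0.7 Mb, 86.4% of windows were unique. The reference is the genome of a C57BL/6 mouse, and its match to NOD sequence in the cluster was not analysed here.

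**Figure D4:**
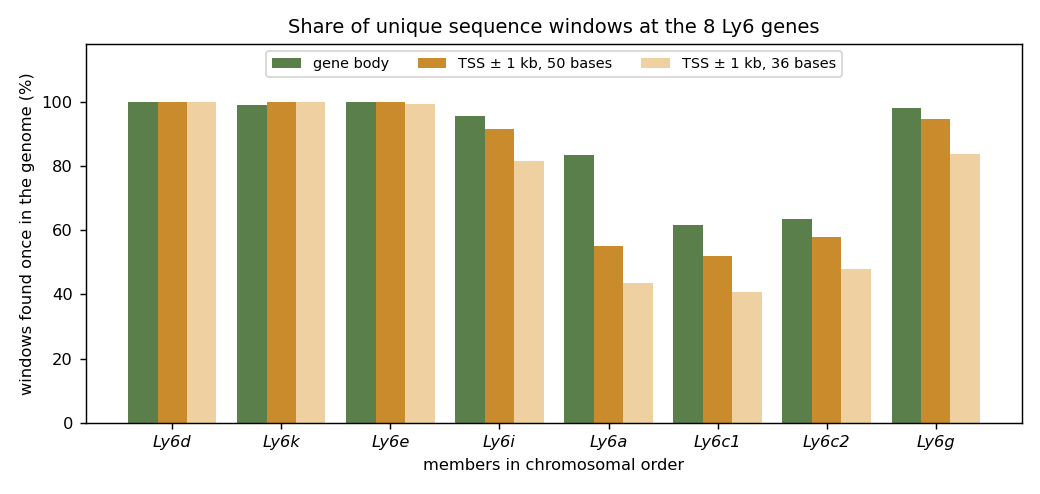
Share of sequence windows that occur once in the reference genome (vertical axis, %), for the gene body with 50-base windows (green) and for 1 kb on either side of the TSS with 50-base (orange) and 36-base windows (pale), at the 8 members in chromosomal order. Ly6a, Ly6c1 and Ly6c2 fall to between 51.9% and 58.0% at the TSS with 50 bases, while Ly6d, Ly6k and Ly6e stand at 100%.

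The promoters of Ly6c2 and of Ly6a2, a further gene of the cluster, show how closely the copies resemble each other, and are printed for that reason. RefSeq promoters (GRCm38.p6, from 250 bases before to 50 bases after the TSS) were matched for 3 of the 8 members, Ly6c1, Ly6c2 and Ly6g. Both sequences below are on the minus strand, from chr15:75111922-75112221 for Ly6c2 and chr15:75135079-75135378 for Ly6a2, and capitals mark bases that differ or have no partner inside the alignment.
Ly6c2: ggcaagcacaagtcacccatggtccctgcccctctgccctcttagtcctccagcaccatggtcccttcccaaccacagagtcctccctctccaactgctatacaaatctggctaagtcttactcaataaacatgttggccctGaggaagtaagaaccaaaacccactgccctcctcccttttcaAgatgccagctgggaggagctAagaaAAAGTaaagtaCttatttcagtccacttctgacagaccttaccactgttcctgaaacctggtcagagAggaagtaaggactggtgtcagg
Ly6a2: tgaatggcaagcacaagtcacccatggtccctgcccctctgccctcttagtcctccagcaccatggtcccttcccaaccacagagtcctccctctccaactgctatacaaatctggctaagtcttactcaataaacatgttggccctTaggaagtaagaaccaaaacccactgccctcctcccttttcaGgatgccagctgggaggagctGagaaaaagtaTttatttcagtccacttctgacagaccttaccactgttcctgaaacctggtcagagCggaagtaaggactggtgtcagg
Of 295 aligned bases 290 (98.3%) were identical, with 5 mismatches and a longest identical run of 142 bases, well over the length of a read. Ly6c2 had 5 bases with no partner inside the alignment and Ly6a2 had 5 at its 5′ end. Across the annotated starts of Ly6c1, Ly6c2 and Ly6g, identity between genes ran from 77.6% to 89.3% over the aligned parts.

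The same promoters were poor in CpG, with 0 or 1 CpG in 300 bases, where the median of 32851 promoters was 7. Neither GAAANNGAAA, the core of the interferon-stimulated response element, nor TTCNNNGAA, the core of the STAT site, both searched on both strands, was found in the promoters of Ly6c1, Ly6c2 and Ly6g. Of all promoters, 3.44% held the first and 8.30% the second. These letters were looked for in no other member, and Ly6e, Ly6a, Ly6i, Ly6k and Ly6d had no matched promoter.

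Other genes of the LY6 family were compared by the same rule. Of 22 family genes on chromosome 15, 3 had a NOD H3K4me3 region (Ly6e, Ly6i and Ly6l), or 13.6% beside 24.4% of all genes, and 1 had a NOD H3K27ac region (Ly6e), or 4.55% beside 16.5%. None had a B6 region of either mark, beside 16.5% for H3K4me3 and 14.5% for H3K27ac. The region near Ly6l was small, with 18 NOD tags and 0 B6 tags. Of 24 family genes elsewhere in the genome, 2 had a NOD and 2 a B6 H3K4me3 region (8.33% each, beside 24.4% and 16.5% of all genes). For H3K27ac, 3 had a NOD and 4 a B6 region (12.5% and 16.7%, beside 16.5% and 14.5%). Among them Cd59a, an inhibitor of the terminal complement complex, came nearest to the pattern of Ly6e, with a NOD H3K4me3 region over its TSS that held 322 NOD tags and 15 B6 tags, a ratio of 14.0 (8.34 to 25.2). Cd59a also had a NOD H3K27ac region with a score of 96.3, rank 489. The 4 genes with B6 H3K27ac regions were Pinlyp and the neighbours Ly6g6c, Ly6g6d and Ly6g6e, which shared 1 region.

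Ly6e is also an interferon-induced gene, and the 44 genes of that list were examined in the same way. NOD H3K4me3 regions were found at 10 of them (22.7%, beside 24.4% of all genes) and B6 H3K4me3 regions at 6 (13.6%, beside 16.5%). NOD H3K27ac regions were found at 4 (9.09%, beside 16.5%) and B6 H3K27ac regions at 3 (6.82%, beside 14.5%). Ly6e, which was chosen from these lists, was the 1 gene of the 44 with both marks enriched in NOD, while Xaf1 and Oasl1 had both enriched in B6. The share of all genes with both marks in 1 strain was not computed. Of Xaf1 and Oasl1, the larger H3K27ac score was at Xaf1, an interferon-induced gene linked to apoptosis, with 50.0 over its TSS. Its H3K4me3 region held 16 B6 and 6 NOD tags, a ratio of B6 to NOD of 4.10 (1.52 to 12.8). After Ly6e, the most NOD tags were at Isg15, an interferon-induced ubiquitin-like protein, with 226 NOD tags and 19 B6 tags in the largest of 3 regions, a ratio of 7.73 (4.84 to 13.1). Irf9, a subunit of the interferon-activated factor ISGF3, had 62 NOD and 9 B6 tags over its TSS, a ratio of 4.48 (2.21 to 10.3). Parp9, Rtp4 and Oas1a had NOD H3K27ac regions with scores of 62.1, 90.6 and 19.9, under the 336.4 of Ly6e. Per kb the order changed, with 77.2 at Rtp4, 48.3 at Ly6e, 46.9 at Oas1a and 38.6 at Parp9. These counts changed by over 1.5 times with the distance rule.

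**Figure D5:**
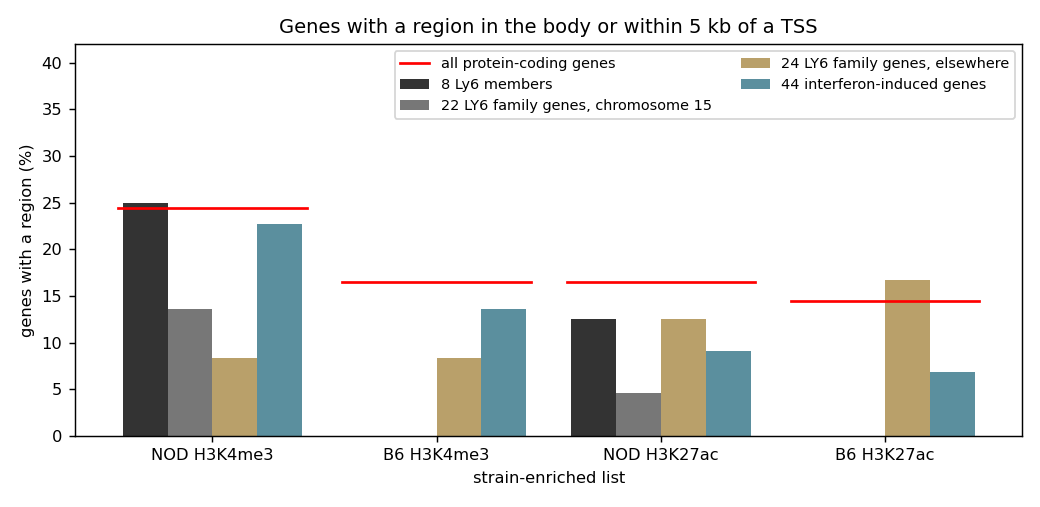
Percent of genes with a strain-enriched region over the body or up to 5 kb from a TSS (vertical axis) for the 4 lists (horizontal axis), in the 8 Ly6 members, LY6 family genes on chromosome 15 and elsewhere, and interferon-induced genes, with the share of all protein-coding genes as a red line. The members, few in number, are at 25.0% beside 24.4% for NOD H3K4me3 and at 12.5% beside 16.5% for NOD H3K27ac, and are at 0 in both B6 lists.

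The cell type was checked with markers of ES cells and of other cells that a culture could hold. The lists hold differences between strains, so a marker without a region is not shown to lack the mark, and the check is limited to that. Of 10 pluripotency genes, 5 had a NOD and 3 a B6 H3K4me3 region, or 50.0% and 30.0% beside 24.4% and 16.5% of all genes. By the largest NOD region of each gene, the most tags lay at Zfp42, over a TSS (1436 NOD and 77 B6 tags), Sox2 (192 and 31) and Pou5f1 (110 and 0). The largest Zfp42 region thus held about as many NOD tags as the gene-body region of Ly6e. Zfp42 also had further NOD regions, the next with 992 NOD and 161 B6 tags. The listed regions of Sox2 and Pou5f1 covered no TSS, and the centre of the Pou5f1 region lay 1.70 kb upstream. The 0 B6 tags in that region therefore do not show that B6 lacked the mark at the Pou5f1 promoter. The paper reports similar levels of both marks at that promoter in both strains. The B6 regions lay at Esrrb, over its TSS (9 NOD and 28 B6 tags), Tfcp2l1 (3 and 17) and Dppa3 (0 and 16). Esrrb and Tfcp2l1 also had NOD regions, so they carried regions of both strains. The largest of these held 38 NOD and 4 B6 tags at Esrrb, and 68 and 5 at Tfcp2l1. For H3K27ac, 1 of the 10 had a NOD region (Dppa3) and 0 a B6 one, beside 16.5% and 14.5% of all genes. Of 8 blood-cell genes, to whose lineages many Ly6 antigens belong, 1 had a NOD H3K4me3 region (Itgam) and 1 a B6 H3K4me3 region (Spi1). These were 12.5% each beside 24.4% and 16.5%. None had an H3K27ac region, beside 16.5% for NOD and 14.5% for B6. Of 10 fibroblast genes, 1 had a NOD and 2 a B6 H3K4me3 region (10% and 20%, beside 24.4% and 16.5%). For H3K27ac, 1 of the 10 had a NOD region (Lum) and 0 a B6 one, beside 16.5% and 14.5%. Of 8 endoderm and trophoblast genes, 3 had a NOD and 3 a B6 H3K4me3 region (37.5% each, beside 24.4% and 16.5%). Cdx2 and Tfap2c had NOD H3K27ac regions, and Tfap2c also a B6 one, 25.0% and 12.5% of the 8 beside 16.5% and 14.5%. The part of other cells in the Ly6e values was not tested.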

How the data were processed

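ES cells of 2 strains were profiled by ChIP-Seq for H3K4me3 and H3K27ac, 1 library each. Per the study, reads were mapped to mm10 with bowtie2 and analysed with HOMER (versions and settings as the authors gave them). The submitters' processing notes name mm9, CASAVA 1.8.2, STAR 2.2.0c and HOMER. The coordinates were taken as mm10, since 0 regions passed a chromosome end and 95.8% of 11573 deposited TSS distances matched RefSeq GRCm38.p6 within 100 bp.

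The authors called regions in each strain against the library of the other strain. Per the file headers, H3K4me3 rows required a tag threshold of 8, 4-fold enrichment and a p-value of 1.00e-04, and hold the tag count, the normalised signal per 10000000 tags and the fold. The deposited p-value and score of H3K4me3 rows were not used. NOD counts, which the authors had scaled to the B6 library, were turned back to whole tags with the library totals, 22750449 for NOD and 14791364 for B6 (ratio 1.54), and 100% came out whole within 0.1 tags among rows where rounding allowed the check. Values the authors wrote for regions without tags were set to 0. Deposited H3K27ac rows hold a score and a slope value with no tags, so the depth of those libraries is unknown.

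Ratios used tags per library total with exact Clopper-Pearson 95% intervals, and a library with 0 tags was given a floor of 3 tags per library. PCR copies are not independent molecules, so intervals and floors cover counting error only. A gene was counted when a region touched its body or lay within 5 kb of a RefSeq TSS. Windows of 50 bases were matched exactly to both strands of the assembled chromosomes. Named were the 8 members, genes with a region inside the window, and from other lists those with the most tags. The members and gene lists were chosen with earlier results of these data known. Python 3.11.15, numpy 2.4.6, pandas 2.3.3, scipy 1.17.1 and biopython 1.88 were used, and functions were tested on simulated data.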

Additional observations from a re-analysis of the deposited data

How the results depend on the processing

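No paired analysis was possible because each strain and mark has 1 library and the labels carry no replicate numbers. Leaving out a replicate was not possible for the same reason. Widening the window by 250 kb on each side gave 4 B6 H3K4me3 and 8 NOD H3K27ac regions. Of the 2 B6 H3K4me3 regions, 1 had a fold of at least 8 and 0 had 50 own-strain tags. Members with a NOD H3K4me3 region fell from 2 to 1 (Ly6e) within 1 kb of a TSS, by nearest TSS within 100 kb of the midpoint, and at a fold of at least 8. With 20 kb around a TSS, Ly6k entered the B6 H3K4me3 list (1 member) and Ly6a the NOD H3K27ac list (2 members). Without scaling to library size the ratio at the Ly6e gene body was 19.9, and with library totals that leave out listed tags it was 13.1. Ranks by score per base pair were 4997, 1795, 5612 and 2 for the NOD H3K27ac regions in chromosomal order (Jrk, Ly6e, Gm28068 intron, between Ly6c1 and Ly6c2), and 177 and 5381 for the B6 regions. By the slope column they were 2485, 63, 1643 and 30, and 450 and 612. Asking for an overlap of 0.5 of the shorter region left 1 H3K4me3 region over the Ly6e H3K27ac domain, the upstream one. With 36-base windows the unique share was 94.7%, 98.3% and 82.6% at the NOD H3K4me3 regions upstream of Ly6e, in its body and at the Gm28068 TSS. It was 92.5%, 55.4% and 68.1% at the last 3 NOD H3K27ac regions, and 96.8% and 94.4% at the B6 ones. The interferon-induced genes with a NOD H3K4me3 region numbered 10 as reported, 4 within 1 kb of a TSS, 18 with 20 kb and 5 at a fold of at least 8, and those with a NOD H3K27ac region 4 as reported and 9 with 20 kb. Their B6 H3K4me3 count went from 6 to 2 within 1 kb and 3 at a fold of at least 8, and their B6 H3K27ac count from 3 to 1 within 1 kb, 6 with 20 kb and 1 at a score of at least 20. LY6 family counts on chromosome 15 ranged from 1 to 4 (NOD H3K4me3) and from 1 to 5 (NOD H3K27ac), and elsewhere from 1 to 5 and from 1 to 6. The share over all genes was not computed under these rules. The B6 H3K4me3 regions of the window held 11 and 21 B6 tags, which limits their precision.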
